A study of Mus musculus with 18 samples.

Results

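The change in translational efficiency between cortices with and without the m6A writer Mettl3 was measured from 12 of the 18 libraries of a mouse study, namely the RNA-seq and Ribo-seq libraries of the Ctrl and *M*-cKO groups, with 3 libraries per group and assay. Translational efficiency (TE) is the amount of ribosome footprint obtained per amount of RNA, and its change was taken for each gene as the footprint change minus the RNA change in a single model of the counts, in which it is the interaction of assay and genotype. All genes with a value in every Ribo-seq column entered, which were 14348 of the 54838 genes of that table, and 13208 of them had enough counts in both assays to be tested. Genes with a called RNA change were then placed as passed on to the footprints, buffered (TE changed against the RNA), amplified (TE changed with the RNA) or unresolved. Buffered is used here also for genes whose footprints moved against the RNA, not only for those whose footprints held still.

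All tissue was cerebral cortex at embryonic day 15.5 from mice labelled C57BL/6. Ctrl libraries are labelled wild type. *M*-cKO libraries are labelled Mettl3(f/f, Emx1-cre), that is, both Mettl3 alleles are floxed and Cre is made under the Emx1 promoter, which acts in the dorsal telencephalon, so that interneurons born elsewhere, vessels, meninges and blood in the same tissue keep the gene. By the methods of the study the floxed mice were of mixed C57/BL6 and 129 background and were crossed with Emx1-Cre mice of C57/BL6 background, and exons 2 and 3 of Mettl3 are removed. The remaining 6 libraries come from *F*-cKO cortices, labelled Fto(f/f, Emx1-cre), and are used only where stated. The labels call the libraries biological repeats without saying how many embryos each holds, and the methods leave unclear whether the Ribo-seq cortices of a group came from separate litters, so the p values measure the spread between these libraries, which may be littermates. The labels also give the RNA fraction as total RNA for RNA-seq and as mRNA for Ribo-seq, and whether the RNA measured matches that behind the footprints was not tested.

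Mettl3 is the catalytic subunit of the complex that writes N6-methyladenosine (m6A) into mRNA, and Fto is a demethylase that can remove it. m6A is known to bring reader proteins to a transcript, and depending on the reader the transcript may be degraded, exported or translated differently. In Ribo-seq, ribosomes are halted with cycloheximide, the RNA between them is digested with RNase I and the protected fragments are counted, so the footprints of a gene follow both the amount of its mRNA and the number of ribosomes on it. The genotype comparison of TE asks for which genes these quantities came apart without Mettl3.

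Counted reads ranged from 18504094 to 22592406 per RNA-seq library. Footprint counts ranged from 30081796 to 35853227 in Ctrl but from 13764136 to 21725348 in *M*-cKO. Protein-coding genes held between 92.5% and 93.9% of the footprints in Ctrl libraries and 84.9%, 84.9% and 91.3% in *M*-cKO libraries, and snoRNA, snRNA, lncRNA and pseudogene loci took a larger share in each *M*-cKO library than in each Ctrl library. Loci of miRNA took between 1.01% and 2.31% in Ctrl and 5.22%, 6.73% and 2.15% in *M*-cKO. The cortical markers Emx1, Neurod2, Neurod6, Tbr1, Pax6 and Eomes were detected in all 12 libraries of both assays. Emx1 had 16.8 FPKM in RNA Ctrl 3 and between 30.1 and 42.7 FPKM in the other 5 RNA-seq libraries of Ctrl and *M*-cKO.

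Mettl3 itself was measured first. Its RNA, in CPM (counts scaled to library size within each assay), was 30.7, 33.9 and 26.98 in Ctrl and 44.5, 40.9 and 43.2 in *M*-cKO, and its footprints were 41.5, 41.9 and 45.1 in Ctrl and 31.03, 29.5 and 29.2 in *M*-cKO. RNA was thus higher and footprints lower in every *M*-cKO library than in every Ctrl library, by 0.49 ± 0.09 (SE, adjusted p = 0.00233) and -0.52 ± 0.11 (SE, adjusted p = 0.0136) on the log2 scale, and TE fell by 1.01 ± 0.13 (SE, adjusted p = 0.00406). The counts cover the whole gene and not exons 2 and 3 alone, so the RNA value does not check the deletion, and Mettl3 overlaps Tox4 in the annotation. The m6A eraser Fto was not deleted in these mice, and its footprints were 301, 256 and 205 in Ctrl and 306, 298 and 259 in *M*-cKO, with overlapping groups and a footprint change of 0.18 ± 0.14 (SE, adjusted p = 0.39).

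Of the 13208 genes, TE was higher in *M*-cKO for 218 (1.65%) and lower for 186 (1.41%) at an adjusted p below 0.05, which is 3.06% of genes in all. RNA was called for 35.3% of the same genes, with 2380 higher (18%) and 2282 lower (17.3%), and footprints for 18%, with 1232 higher (9.33%) and 1149 lower (8.7%). At an unadjusted p below 0.05, 1477 genes had higher and 1354 lower TE. The called TE changes had a median size of 0.79 on the log2 scale among the higher genes and -0.70 among the lower ones. The last gene called was Csnk1d, at -0.42 ± 0.11 (SE, adjusted p = 0.04996), and the first not called was Gm10608, at 1.87 ± 0.48 (SE, adjusted p = 0.05023).

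How many genes pass depends strongly on single libraries. Leaving out 1 of the 12 libraries gave between 28 and 626 genes with higher TE and between 19 and 485 with lower TE. The lowest counts came without RNA Ctrl 3, with 28 higher and 19 lower, without Ribo Ctrl 2, with 41 and 27, and without RNA *M*-cKO 1, with 42 and 25. The highest came without Ribo *M*-cKO 3, with 626 and 485, without Ribo Ctrl 3, with 377 and 298, and without Ribo *M*-cKO 1, with 305 and 306. The other RNA-seq libraries gave between 74 and 100 higher and between 40 and 73 lower genes when left out, Ribo Ctrl 1 gave 139 and 91, and Ribo *M*-cKO 2 gave 195 and 138. In a fit of all 18 libraries, in which *F*-cKO shares the estimate of the spread, 6 genes were higher and 2 lower. Footprint calls ranged from 265 higher and 245 lower without Ribo Ctrl 2 to 1513 and 1286 without Ribo *M*-cKO 3, and with all 18 libraries they were 1 and 0. Of the 404 called genes 41 were called in all 12 fits without 1 library. When a Ribo-seq and RNA-seq pair of the same number was left out together, 7 were called in all 6 fits and 61 in none. All 20 protein-coding genes listed below as those with the smallest TE p belong to these 41. Both sets rest on small p values from the same libraries, so this overlap follows from the choice of genes.

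**Figure D1:**
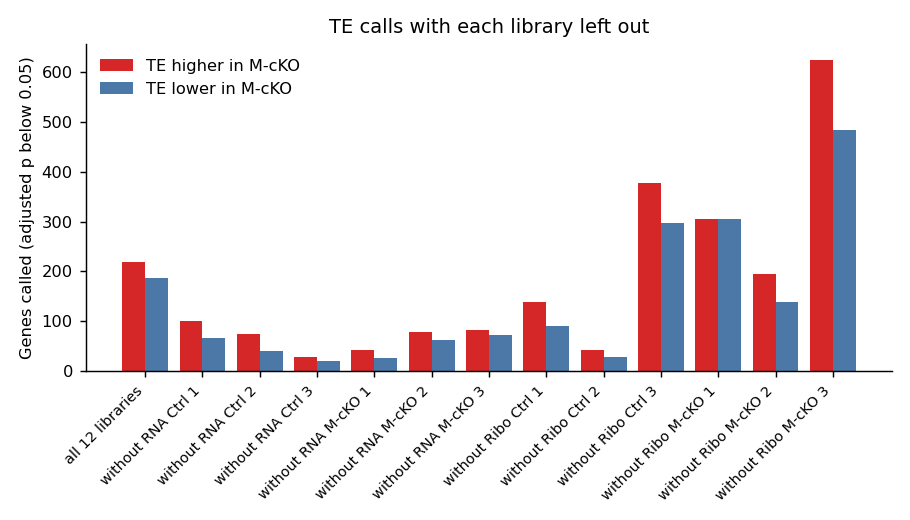
Bars give the number of genes whose TE was called higher or lower in M-cKO than in Ctrl with all 12 libraries (left) and with each library left out in turn, on a linear axis from 0. Counts are lowest without RNA Ctrl 3 (28 and 19) and highest without Ribo M-cKO 3 (626 and 485).

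Of the 4662 RNA-called genes, 1356 (29.1%) were passed on, meaning that the footprints were called in the same direction and TE was not called. Buffered genes numbered 184 (3.95% of RNA-called genes) and amplified genes 31 (0.665%), and 3091 (66.3%) had neither a called TE change nor a footprint change called in the direction of the RNA, and are unresolved. Footprints were called in 43 of the buffered genes, in 42 of them against the direction of the RNA. A further 189 genes had a called TE change without a called RNA change, and are named footprint-only here for want of an RNA call, with footprints called in 175 of them. Of the remaining genes 769 had a called footprint change alone and 7588 no call in any measure. Leaving out 1 library gave between 24 (without RNA Ctrl 3) and 400 (without Ribo *M*-cKO 3) buffered, between 380 (without Ribo Ctrl 2) and 1428 (without Ribo *M*-cKO 3) passed-on and between 0 (without RNA Ctrl 3) and 97 (without Ribo *M*-cKO 3) amplified genes. With all 18 libraries 4 genes were buffered and none passed on or amplified, and with DESeq2 the numbers were 423 buffered, 1577 passed on and 80 amplified. The RNA libraries enter the TE change with the opposite sign, so the RNA and TE estimates of a gene are not independent, and the number of buffered against amplified genes was not tested.

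Footprint and RNA changes come from different libraries and could be set side by side. Across the RNA-called genes they had a Pearson correlation of 0.702 and a Spearman correlation of 0.707, and 81.8% had the same sign. Over all 13208 genes tested the correlations were 0.495 and 0.493, and 67.2% had the same sign. These are descriptions across genes, which are not independent replicates, and libraries of both assays with the same number deviated together from their group means. Among genes whose RNA fell by more than 1.5 on the log2 scale (57 genes) the median RNA change was -1.81 and the median footprint change -1.36. Between 0.5 and 1 above Ctrl (753 genes) the medians were 0.658 for RNA and 0.523 for footprints. In the 34 genes whose RNA rose by more than 1.5 they were 1.96 and 1.76. The median footprint change was the smaller in size in each of 8 ranges of RNA change. Because the ranges were set on the RNA estimates, the RNA medians contain the error of those estimates. The footprint medians share that error only as far as the libraries of both assays deviated together. The share of genes passed on was 21.3% for falls of up to 0.5 and 61.4% for falls of more than 1.5, and on the rising side it was 23% up to 0.5 and 67.6% above 1.5. A gene passed on needs a called footprint change, and larger changes are called more readily. The share therefore cannot tell how fully RNA changes of different size reached the footprints.

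**Figure D2:**
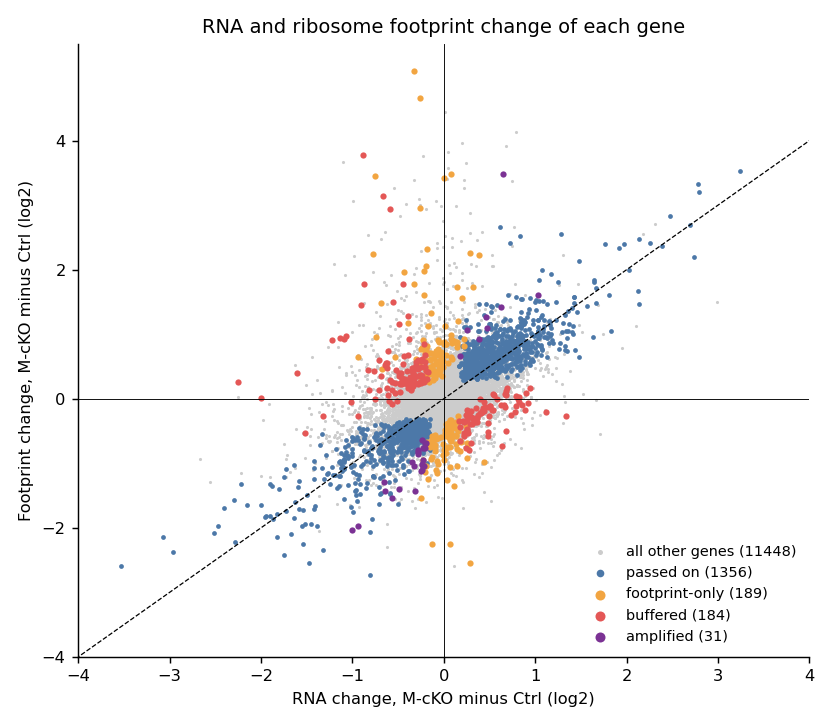
Each point is a gene, with the RNA change (x) and the footprint change (y) of M-cKO against Ctrl on log2 axes, coloured by class, and the dashed line marks equal changes (1 of the 13208 genes lies outside the plotted range). Passed-on genes (1356) follow the dashed line, buffered genes (184) lie near or across the horizontal line of no footprint change, and amplified genes (31) lie beyond the dashed line.

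The genes passed on with the most certain RNA rises were Mrpl43, a protein of the mitochondrial ribosome, Dusp14, a phosphatase, Fam110a, Ckap4, a membrane protein of the endoplasmic reticulum, and Nxt1, which takes part in mRNA export. Dusp14 RNA was 11.9, 11.6 and 9.91 in Ctrl and 34.4, 34.5 and 37.5 in *M*-cKO, and its footprints were 12.4, 12.6 and 11.3 in Ctrl and 38.1, 33.7 and 30.2 in *M*-cKO. RNA and footprints rose by 1.67 and 1.49, and no TE difference was called (-0.18 ± 0.16, SE, adjusted p = 0.55). For Mrpl43 the RNA change was 1.13 ± 0.06 (SE, adjusted p = 1.38e-05) and the footprint change 1.47 ± 0.13 (SE, adjusted p = 7.69e-04), and this gene overlaps Twnk, which is itself among the buffered genes. Footprint changes of the other 3 were 0.91 for Fam110a, 1.07 for Ckap4 and 0.94 for Nxt1, against RNA changes of 1.19, 0.89 and 1.35.

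On the falling side the leading genes were Ccbe1, a secreted protein of lymphatic growth, Hivep2, a zinc finger transcription factor, Tnc, an extracellular matrix protein of the radial glial niche, Itpr1, the inositol trisphosphate receptor that releases calcium from the endoplasmic reticulum, and Igfbp3, a binding protein of insulin-like growth factors. Ccbe1 RNA was 31.04, 30.8 and 39.3 in Ctrl and 7.27, 6.18 and 7.25 in *M*-cKO, and its footprints were 5.52, 5.81 and 7.75 in Ctrl and 1.37, 1.11 and 1.57 in *M*-cKO. Both lay lower in every *M*-cKO library, with changes of -2.29 ± 0.13 (SE, adjusted p = 1.38e-05) and -2.21 ± 0.25 (SE, adjusted p = 0.00161). Itpr1 changed by -1.41 in RNA and -1.66 in footprints. Tnc had an RNA change of -1.64 and a footprint change of -1.02, with a TE difference of 0.62 ± 0.19 (SE, adjusted p = 0.0866), which was called when the Ribo-seq and RNA-seq libraries of the same genotype and number were kept as a block (0.63, adjusted p = 0.0359). Some of the genes the study names from these libraries were also passed on. Fabp7, the fatty acid binding protein of radial glia, changed by -0.98 in RNA and -1.03 in footprints, and its TE change was -0.05 ± 0.19 (SE, adjusted p = 0.91). Gpm6a (-0.56 and -0.96), Cdk6 (-0.52 and -1.11) and Nrp1 (-0.58 and -0.75) were passed on as well, while Gpm6b, Tcf4 and Epha4 had called RNA falls and TE changes of 0.02, -0.08 and 0.003 that were not called.

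Buffered genes with lower RNA numbered 107, of which 97 are protein-coding. Their median RNA change was -0.43, their median footprint change was 0.36 and their median TE change was 0.78. In 29 of them footprints were called higher while RNA was lower, in 1 (Gabra2) footprints fell with the RNA, and in the rest no footprint change was called. The *M*-cKO to Ctrl ratios of footprint to RNA did not overlap in any of the 107, against 13.3% of all genes tested whose 3 *M*-cKO ratios all lay above Ctrl, but this follows from the choice of called genes.

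The smallest TE p of these was that of Mfge8, which encodes a secreted glycoprotein made by radial glia and known as a bridge between phagocytes and dying cells. Its RNA was 113, 107 and 115 in Ctrl and 77.9, 72.9 and 93.8 in *M*-cKO, and its footprints were 29.3, 22.5 and 24.1 in Ctrl and 97.6, 74.4 and 88.3 in *M*-cKO. All 3 *M*-cKO libraries had less RNA and more footprint than all Ctrl libraries, and the footprint to RNA ratio was 0.260, 0.209 and 0.210 in Ctrl and 1.25, 1.02 and 0.941 in *M*-cKO. RNA changed by -0.45 ± 0.09 (SE, adjusted p = 0.00277), footprints by 1.78 ± 0.14 (SE, adjusted p = 6.86e-04) and TE by 2.23 ± 0.18 (SE, adjusted p = 2.29e-05). Fam193b had footprints of 31.04, 30.4 and 30.1 in Ctrl and 58.9, 61.1 and 54.3 in *M*-cKO, with an RNA change of -0.38 and a TE change of 1.31 ± 0.12 (SE, adjusted p = 7.45e-05).

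Chga and Chgb, the chromogranins of dense-core secretory granules, had footprints of 14.9, 15.9 and 15.2 in Ctrl and 21.1, 27.1 and 25.4 in *M*-cKO and of 10.4, 10.1 and 12.6 in Ctrl and 16.04, 19.8 and 16.7 in *M*-cKO. TE rose by 0.89 ± 0.13 (SE, adjusted p = 0.0098) for Chga and 1.10 ± 0.17 (SE, adjusted p = 0.00995) for Chgb while their RNA changed by -0.21 and -0.44. Nefl, the light chain of neurofilaments, had lower RNA in *M*-cKO and no called footprint change. Nefl RNA was 67.2, 50.7 and 77.7 in Ctrl and 27.5, 26.4 and 24.5 in *M*-cKO, and its footprints were 23.98, 21.1 and 34.3 in Ctrl and 22.3, 21.99 and 21.6 in *M*-cKO, with overlapping groups. The RNA change was -1.32 ± 0.13 (SE, adjusted p = 8.39e-05) and the footprint change -0.27 ± 0.18 (SE, adjusted p = 0.31). Gabra2, a subunit of the GABA-A receptor, had an RNA change of -1.52, a footprint change of -0.53 (adjusted p = 0.0408) and a TE change of 0.999 ± 0.23 (SE, adjusted p = 0.0342). Clstn2, a synaptic membrane protein, and Scn8a, a voltage-gated sodium channel, had RNA changes of -0.94 and -0.75 and footprint changes of -0.26 and -0.01 that were not called.

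Sltm, a nuclear RNA-binding protein of the scaffold attachment factor family, had RNA of 127, 128 and 144 in Ctrl and 86.9, 89.98 and 85.2 in *M*-cKO and footprints of 180.4, 173 and 192 in Ctrl and 182, 188 and 196 in *M*-cKO. RNA was lower in each *M*-cKO library while footprints overlapped, and TE rose by 0.66 ± 0.11 (SE, adjusted p = 0.0107). Prpf40b, a spliceosome component, had no called RNA change (-0.08, adjusted p = 0.43) and footprints higher by 0.69 ± 0.09 (SE, adjusted p = 0.00291), so it is footprint-only. The 2 other protein-coding genes with lower RNA among the 10 with the smallest p for higher TE were Perm1 (2.35 ± 0.33, SE, adjusted p = 0.00663) and Ap1g2, a subunit of an adaptor complex of the Golgi (1.18 ± 0.18, SE, adjusted p = 0.00995). Perm1 was at or below 3 footprint CPM in all 6 libraries.

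Buffered genes with higher RNA numbered 77, of which 76 are protein-coding, with median changes of 0.42 for RNA, -0.21 for footprints and -0.67 for TE. Footprints were called in 13 of them and fell in all 13. Mettl3, described above, is 1 of the 77. Wdr6, a subunit of a tRNA ribose methyltransferase, had the most certain RNA rise. Wdr6 RNA was 252, 249 and 235 in Ctrl and 493, 447 and 473 in *M*-cKO, and its footprints were 771, 625 and 551 in Ctrl and 823, 757 and 609 in *M*-cKO. The RNA groups were far apart while the footprint groups overlapped, and TE fell by 0.77 ± 0.17 (SE, adjusted p = 0.0323). Cox7a2l, an assembly factor of respiratory supercomplexes, rose by 0.73 in RNA and changed by -0.26 (adjusted p = 0.38) in footprints, with a TE change of -0.99 ± 0.20 (SE, adjusted p = 0.0204).

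Cln8, a membrane protein of the endoplasmic reticulum, had RNA of 37.6, 34.7 and 31.5 in Ctrl and 63.1, 59.2 and 60.3 in *M*-cKO and footprints of 5.55, 7.01 and 6.86 in Ctrl and 6.13, 6.51 and 6.76 in *M*-cKO. The RNA groups were apart and the footprint groups overlapped. The RNA change was 0.81 ± 0.08 (SE, adjusted p = 6.30e-05), no footprint change was called, and TE fell by 0.81 ± 0.16 (SE, adjusted p = 0.0192). Plcxd2 and Ankrd50 had RNA rises of 0.92 and 0.69 and footprint changes of -0.07 and 0.16, neither of which was called. Tigd2 rose by 1.12 in RNA and had a TE change of -1.33 ± 0.21 (SE, adjusted p = 0.00995). In another subset the RNA rose little and the footprints fell. Ptp4a2, a tyrosine phosphatase, had RNA of 226, 208 and 212 in Ctrl and 246, 264 and 256 in *M*-cKO and footprints of 102, 98.5 and 97.7 in Ctrl and 65.1, 49.5 and 61.2 in *M*-cKO, and TE fell by 1.003 ± 0.13 (SE, adjusted p = 0.00323). Fbxw2 and Ube2r2, parts of ubiquitin ligation, and the kinase Mapk6 had footprint changes of -0.58, -0.50 and -0.65 and TE changes of -0.79, -0.75 and -0.83.

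**Figure D3:**
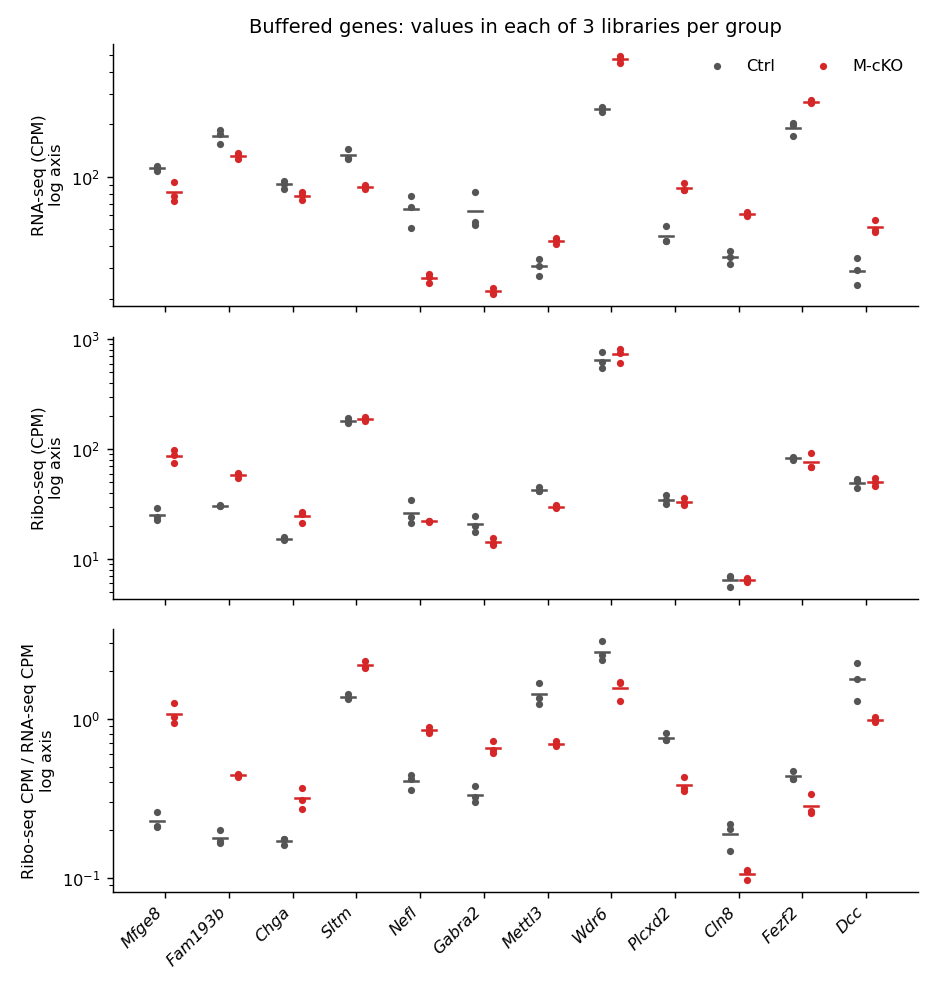
RNA-seq CPM (top), Ribo-seq CPM (middle) and their ratio by library number (bottom) for 12 buffered genes, with 3 points per group, a bar at the mean and log axes throughout. In the bottom panel the M-cKO ratios lie above Ctrl for Mfge8 to Gabra2 and below Ctrl for Mettl3 to Dcc, without overlap.

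Amplified genes were few. In 8 genes RNA, footprints and TE all rose, namely Tpgs1, Bahcc1, Rcn1, Alyref2, Rad52, Atp5g2, Tnfrsf10b and Igdcc4, and in 23 all fell. Tpgs1, a subunit of the enzyme that adds glutamate chains to tubulin, had RNA of 38.99, 39.7 and 42.1 in Ctrl and 81.5, 77.4 and 87.7 in *M*-cKO and footprints of 26.3, 25.9 and 25.97 in Ctrl and 77.1, 83.1 and 78.8 in *M*-cKO. The groups were apart in both assays, with changes of 1.03 ± 0.07 (SE, adjusted p = 1.71e-05) for RNA, 1.61 ± 0.10 (SE, adjusted p = 1.42e-04) for footprints and 0.58 ± 0.11 (SE, adjusted p = 0.0165) for TE. Rad52, a protein of DNA repair, had footprints of 12.4, 12.8 and 15.1 in Ctrl and 32.7, 31.6 and 32.3 in *M*-cKO and a TE change of 0.80 ± 0.16 (SE, adjusted p = 0.02). TE changes were 0.63 for Bahcc1, 0.54 for Rcn1, a calcium-binding protein of the endoplasmic reticulum, and 0.79 for Alyref2. With the paired libraries as a block the calls of Rcn1 and Alyref2 were lost (adjusted p = 0.0648 and 0.0708).

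Among the genes that fell in all 3 measures, Gpr85, an orphan receptor of the brain, had RNA of 157, 158 and 174 in Ctrl and 103, 106 and 102 in *M*-cKO and footprints of 73.1, 77.9 and 85.5 in Ctrl and 28.5, 30.9 and 37.7 in *M*-cKO. Every *M*-cKO library lay below every Ctrl library in both assays, and TE fell by 0.63 ± 0.14 (SE, adjusted p = 0.0322). Mt3, a metallothionein of the brain, had footprints of 467, 345 and 309.9 in Ctrl and 146, 135 and 134 in *M*-cKO, an RNA change of -0.64 and a TE change of -0.79 ± 0.19 (SE, adjusted p = 0.0384). Psmd6, a subunit of the proteasome lid, and Snrpd1, a core protein of spliceosomal snRNPs, changed by -0.29 and -0.29 in RNA and by -0.79 and -0.83 in footprints. Atp6v0b, a subunit of the proton pump of vacuoles and lysosomes, had a TE change of -0.71 ± 0.18 (SE, adjusted p = 0.0477), with an adjusted p of 0.0528 under the block.

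Of the 189 footprint-only genes 103 had higher and 86 lower TE. C2cd2l, a lipid transfer protein at contacts of the endoplasmic reticulum with the plasma membrane, had overlapping RNA (48.8, 48.1 and 45.7 in Ctrl and 45.97, 46.2 and 50.6 in *M*-cKO) and footprints of 13.7, 8.64 and 11.5 in Ctrl and 160.1, 118 and 86.8 in *M*-cKO. The footprint groups were far apart, and TE rose by 3.42 ± 0.27 (SE, adjusted p = 2.29e-05). Hist1h1c, a linker histone, had footprints of 85.2, 73.8 and 64.8 in Ctrl and 196, 165 and 144 in *M*-cKO, which did not overlap, and RNA of 9.62, 11.2 and 13.8 in Ctrl and 9.87, 6.79 and 9.60 in *M*-cKO, which did. Its TE rose by 1.56 ± 0.24 (SE, adjusted p = 0.0098).

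Actg1, cytoplasmic gamma-actin, was the protein-coding gene with the smallest p for lower TE. Its RNA was 1686, 1621 and 1661 in Ctrl and 1738, 1648 and 1961 in *M*-cKO, and its footprints were 2416, 1702 and 1654 in Ctrl and 697, 763 and 807 in *M*-cKO. RNA overlapped between the groups, every *M*-cKO footprint value lay below every Ctrl value, and TE fell by 1.45 ± 0.18 (SE, adjusted p = 0.00297). Footprints of Actg1 in *F*-cKO were 513, 508 and 1575 CPM, so that *F*-cKO 1 and 2 lay below every *M*-cKO library. Actg1 shares long stretches of coding sequence with the other actins, and how fragments matching several of them were counted is not stated. Actb had a TE change of -0.33 (adjusted p = 0.2). Rab39b, a GTPase of vesicle transport in neurons, and Gpat4, an enzyme of glycerolipid synthesis, had TE changes of -1.12 ± 0.18 (SE, adjusted p = 0.0107) and -0.70 ± 0.11 (SE, adjusted p = 0.00995) with RNA changes of 0.07 and 0.13 that were not called.

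**Figure D4:**
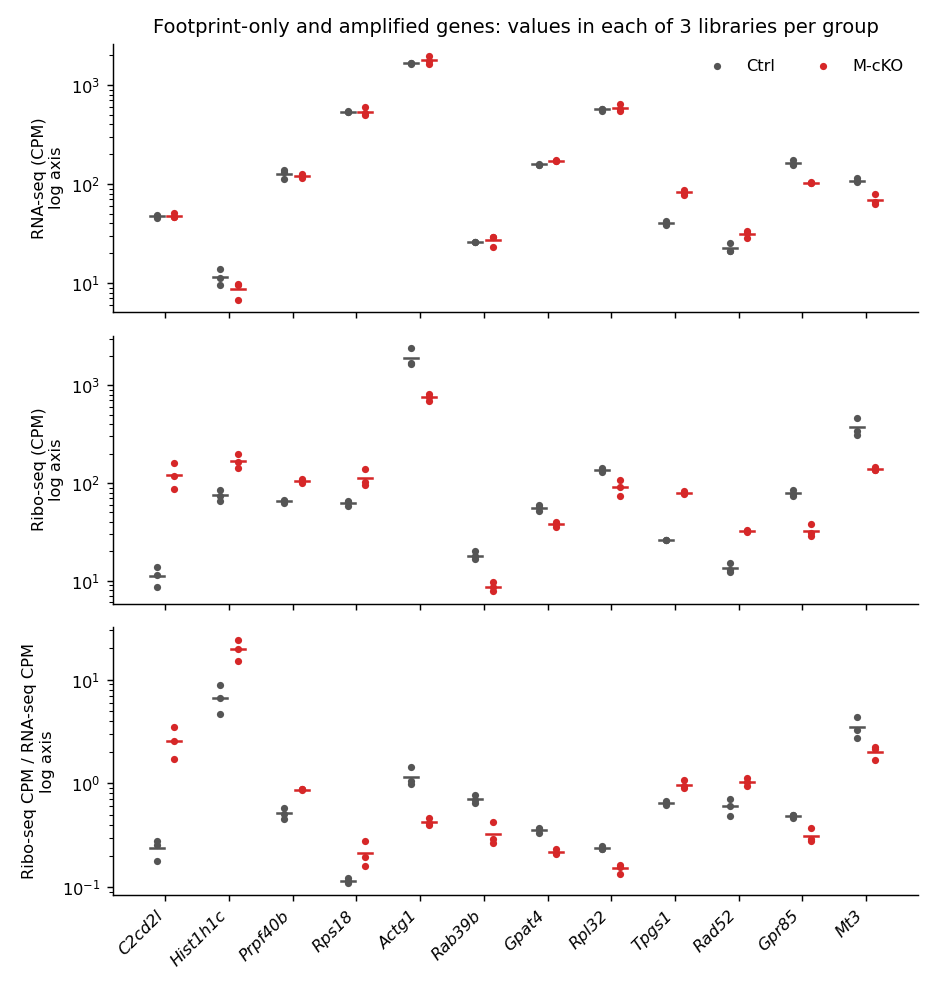
RNA-seq CPM (top), Ribo-seq CPM (middle) and their ratio by library number (bottom) for 8 footprint-only genes (C2cd2l to Rpl32) and 4 amplified genes (Tpgs1 to Mt3), with 3 points per group, a bar at the mean and log axes throughout. RNA of the footprint-only genes is close in both groups while their footprints part, most for C2cd2l.

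TE levels were computed for each gene as mean Ribo-seq RPKM over mean RNA-seq FPKM, both per length. The median level was 0.886 in Ctrl and 0.858 in *M*-cKO, with quartiles of 0.405 and 1.61 in Ctrl and of 0.403 and 1.52 in *M*-cKO. By library number the medians were 0.891, 0.875 and 0.888 in Ctrl and 0.854, 0.83 and 0.859 in *M*-cKO. These medians do not overlap, but both values are relative to library totals, so a common shift of TE cannot be read from them. In *F*-cKO, whose libraries took no part in choosing the genes, the median TE level was 0.606 over the 187 protein-coding genes with higher TE, 0.992 over the 176 with lower TE and 0.923 over all 12540 protein-coding genes tested. The same medians, in the order of higher, lower and all, were 0.353, 1.35 and 0.903 in Ctrl and 0.617, 0.718 and 0.872 in *M*-cKO, the groups by which the genes were chosen. The median FPKM in *F*-cKO was 13.1 and 14.7 over the higher and lower genes and 7.31 over all 12540.

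Genes were also grouped by known function, and for each group the number of genes called is to be read against the 3.06% of all genes. Besides Mettl3, the list of m6A writers had 8 tested members, which are subunits of its complex and Mettl16, a separate methyltransferase. RNA of Rbm15, an RNA-binding subunit that directs the complex to its sites, was 22.2, 21.2 and 17.9 in Ctrl and 56.5, 53.03 and 47.4 in *M*-cKO, and its footprints were 69.1, 66.2 and 51.6 in Ctrl and 142, 118 and 128 in *M*-cKO. The groups were apart in both assays, and the changes were 1.35 ± 0.10 (SE, adjusted p = 2.28e-05) for RNA, 1.05 ± 0.13 (SE, adjusted p = 0.00224) for footprints and -0.30 ± 0.17 (SE, adjusted p = 0.33) for TE. Rbm15b, Wtap and Mettl16 were passed on as well, with footprint changes of 0.82, 0.55 and 0.47. Zc3h13, a subunit that holds the complex in the nucleus, was the other member called in TE, with footprints of 251, 261 and 297 in Ctrl and 360.0, 364 and 367 in *M*-cKO and a TE change of 0.54 ± 0.11 (SE, adjusted p = 0.0261). Mettl14, the partner of Mettl3, had TE and RNA changes of 0.13 and -0.02, neither called. Virma and Cbll1 had called RNA rises of 0.40 and 0.31 and TE changes of -0.18 and -0.22 that were not called.

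None of the 12 readers was called in TE. The cytoplasmic readers Ythdf1 and Ythdf2, known for translation and decay of methylated mRNA, were passed on, with RNA changes of 0.83 and 0.68 and footprint changes of 0.51 and 0.89. Igf2bp2 was passed on too (0.59 and 0.74). Footprints alone rose for the nuclear reader Ythdc1 (0.53 ± 0.10, SE, adjusted p = 0.0109) and for Igf2bp1 (0.76 ± 0.14, SE, adjusted p = 0.00857), with TE changes of 0.41 (adjusted p = 0.0776) and 0.58 (adjusted p = 0.11). RNA of Igf2bp3 rose by 0.29, RNA of Hnrnpa2b1 and Fmr1, which fell, changed by -0.22 and -0.32, and Ythdf3, Ythdc2, Hnrnpc and Prrc2a had no call in any measure. The erasers Fto and Alkbh5 had RNA rises of 0.34 (adjusted p = 0.018) and 0.37 (adjusted p = 0.00307) and TE changes of -0.16 and -0.30 that were not called.

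Of 80 cytosolic ribosomal proteins 3 were called, Rps18 upward (0.85 ± 0.17, SE, adjusted p = 0.0212) and Rpl32 (-0.64 ± 0.16, SE, adjusted p = 0.0472) and Rplp1 (-0.75 ± 0.19, SE, adjusted p = 0.04984) downward, and the list median was -0.09. None was called without RNA Ctrl 2, RNA Ctrl 3, RNA *M*-cKO 1, RNA *M*-cKO 2 or Ribo Ctrl 2. Without Ribo Ctrl 3, 3 were called upward and 9 downward, and without Ribo *M*-cKO 3, 5 upward and 8 downward. Rps18 footprints were 64.7, 63.3 and 58.5 in Ctrl and 102, 139 and 95.1 in *M*-cKO with RNA between 498 and 598 CPM in all 6 libraries. Ribosomal protein genes have many near-identical pseudogenes, so their counts are uncertain. Of 63 initiation and elongation factors 2 were called, both subunits of eIF3, with TE changes of 0.40 for Eif3a and -0.40 for Eif3m, and both calls were lost under the block (adjusted p = 0.0744 and 0.0881). Farsb was the 1 of 20 aminoacyl-tRNA synthetases called (-0.49, adjusted p = 0.0528 under the block). Psmd6, described above, was the 1 of 36 proteasome subunits, and Mrpl3 (-0.50 ± 0.11, SE, adjusted p = 0.0261) the 1 of 75 mitochondrial ribosomal proteins. None of 11 stress response transcripts with upstream reading frames was called, and Atf4, the best known of them, had a TE change of -0.15 (adjusted p = 0.58).

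Of 78 nuclear-encoded subunits of the respiratory chain 5 were called, Ndufa13 (0.64) and Atp5g2 (0.83) upward and Cox7a2l, Ndufs5 (-0.84) and Atp5g1 (-0.85) downward, with a list median of 0.01. None of this list was called without RNA Ctrl 3, and 4 upward and 8 downward were called without Ribo *M*-cKO 3. Atp5g1 and Atp5g2 encode the same mature subunit of the ATP synthase ring, and their footprints were 61.7, 45.6 and 45.97 in Ctrl and 26.5, 24.1 and 33.4 in *M*-cKO for the former and 8.91, 12.8 and 15.3 in Ctrl and 26.1, 24.3 and 27.3 in *M*-cKO for the latter. All 8 tested genes of the mitochondrial genome had lower RNA (median change -0.60), against 17.3% of all genes, and a TE change above 0 (median 1.61), and mt-Nd4 and mt-Nd5 were called. The median footprint change of the list was 1.06 with all libraries and 0.22 without Ribo *M*-cKO 2. None of the 8 was called in TE without RNA Ctrl 3 or RNA *M*-cKO 1, and 6 were called without Ribo *M*-cKO 3. Footprints of the 8 genes were few beside their RNA. For mt-Nd4 the RNA was 1497, 1339 and 1911 in Ctrl and 996, 1089 and 909 in *M*-cKO, and the footprints were 1.68, 2.62 and 1.32 in Ctrl and 9.85, 35.4 and 5.001 in *M*-cKO, highest in *M*-cKO 2. These transcripts are read by mitochondrial ribosomes, and how many of these each lysate retained was not tested.

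The 16 endoplasmic reticulum chaperones had no TE call. All 16 had a TE change above 0, and in 13 the 3 *M*-cKO ratios all lay above Ctrl, against 13.3% of all genes. The median TE change of all genes tested was -0.002. These genes were measured in the same libraries and are not independent replicates. Without Ribo Ctrl 3, 4 of them were called higher in TE, and 1 was without Ribo *M*-cKO 2 or Ribo *M*-cKO 3. The list median was 0.38 for TE, -0.08 for RNA and 0.33 for footprints. Calr, the lectin chaperone calreticulin, had the smallest adjusted p, at 0.57 ± 0.15 (SE, adjusted p = 0.0537), and Hspa5, the main Hsp70 of this compartment, had a TE change of 0.40 ± 0.16 (SE, adjusted p = 0.17). Footprints rose for 4 of them, Calr, P4hb, Pdia4 and Manf, against 9.33% of all genes. They rose for none without Ribo Ctrl 1 or Ribo Ctrl 2, for 2 without Ribo *M*-cKO 1 and for 5 without Ribo *M*-cKO 2. Of 15 actins and tubulins Actg1 and Tuba1c (0.73 ± 0.17, SE, adjusted p = 0.0404) were called, in opposite directions.

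For the cell type lists below, the shares over all genes are 18% higher and 17.3% lower in RNA, 9.33% higher and 8.7% lower in footprints and 3.06% called in TE. Of 24 radial glia genes 7 had higher and 10 lower RNA (median -0.09), 6 had higher and 8 lower footprints (median -0.29), and Mfge8 was the only TE call. Among the 11 passed on, Sox2 (0.88 and 1.16), Hes1, Sox9, Id4 and Notch1 rose in both assays, and Fabp7, Gpm6a, Cdk6, Ptprz1, Tnc and Hopx (-0.96 and -1.49) fell in both. Of 20 intermediate progenitor genes 9 had higher and 4 lower RNA, and Ccnb1 was the only TE call. RNA Ctrl 3 was the lowest library for Eomes, at 30.1 FPKM against 44.3 and 46.8 in the other Ctrl libraries, and without it 8 were higher and 4 lower in RNA. No gene of the list was called in TE when any single RNA-seq library was left out. Ccnb1, cyclin B1, which starts mitosis with Cdk1, had RNA of 54.4, 52.9 and 37.4 in Ctrl and 66.5, 64.2 and 72.6 in *M*-cKO and footprints of 39.3, 49.3 and 47.1 in Ctrl and 41.2, 33.03 and 29.8 in *M*-cKO, with a TE change of -0.87 ± 0.21 (SE, adjusted p = 0.0412). Both lists include genes that the study names from these libraries, such as Fabp7 and Ccnb1, so their counts are not independent evidence. Of 24 genes of mitosis and the kinetochore 18 had higher RNA (median 0.49), against 18% of all genes, and 7 higher footprints (median 0.20; 3 without Ribo Ctrl 2), against 9.33%, the list median of TE was -0.24, and Ccnb1 was again the only TE call. Mki67, a marker of cycling cells, was passed on (0.79 and 0.82), while Knl1, which anchors kinetochore proteins, had an RNA rise of 0.87, a footprint change of 0.02 and a TE change of -0.85 (adjusted p = 0.0789). In bulk tissue, more cells of a type and more RNA per cell cannot be told apart.

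Of 11 deep-layer genes 5 had higher and 3 lower RNA, and 3 had higher and 2 lower footprints. Bcl11b (0.86 and 0.98), Sox5 and Foxp2 rose in both assays, Crym (-1.90 and -1.82) and Ldb2 fell in both, and Fezf2, which specifies subcerebral projection neurons, was buffered. Fezf2 RNA was 199, 203 and 170.3 in Ctrl and 269, 265 and 276 in *M*-cKO, and its footprints were 82.9, 84.9 and 80.1 in Ctrl and 68.7, 69.2 and 92.4 in *M*-cKO. RNA was higher in each *M*-cKO library with overlapping footprints, and TE fell by 0.60 ± 0.15 (SE, adjusted p = 0.0472). Of 12 upper-layer genes 9 had lower RNA. Rorb, Mef2c, Inhba and Plxna4 were among those passed on, with footprint changes of -0.47, -1.02, -1.36 and -0.37, and Cux2 was the only TE call (0.49 ± 0.12, SE, adjusted p = 0.0472, adjusted p = 0.0572 under the block). Of 20 pan-neuronal genes 14 had lower RNA, against 17.3% of all genes, and 3 lower footprints (Stmn1, Stmn2 and Syn1), against 8.7% and with 1 to 6 when a library was left out, and Nefl was the only TE call, upward. Of 36 axon guidance genes Plxna3, a semaphorin receptor (0.76 ± 0.14, SE, adjusted p = 0.0178), and Dcc, the netrin receptor (-0.80 ± 0.18, SE, adjusted p = 0.0314), were called. Dcc RNA was 34.1, 28.96 and 23.8 in Ctrl and 56.3, 49.4 and 48.3 in *M*-cKO, and its footprints were 44.1, 51.7 and 53.1 in Ctrl and 54.8, 50.6 and 46.1 in *M*-cKO, so that RNA was apart and footprints overlapped.

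Of 337 Zfp zinc finger genes 11 were called, 5 upward, led by Zfp653 (1.001), and 6 downward, led by Zfp770 (-1.06), and Zfp251 lost its call under the block (adjusted p = 0.0543). Replication-dependent histones were measured for 13 genes, and Hist1h1c and Hist1h2be (1.14) had higher TE. Their RNA-seq values are small against their footprints, as for Hist1h2be, with RNA at or below 1.16 CPM in all 6 libraries. Of 28 genes of mRNA decay and surveillance Upf3b (0.78 ± 0.16, SE, adjusted p = 0.0234), of nonsense-mediated decay, was called. None of 14 p53 targets was called in TE, and Cdkn1a, the inhibitor of cyclin-dependent kinases, had an RNA rise of 1.01 and a TE change of -0.16.

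**Figure D5:**
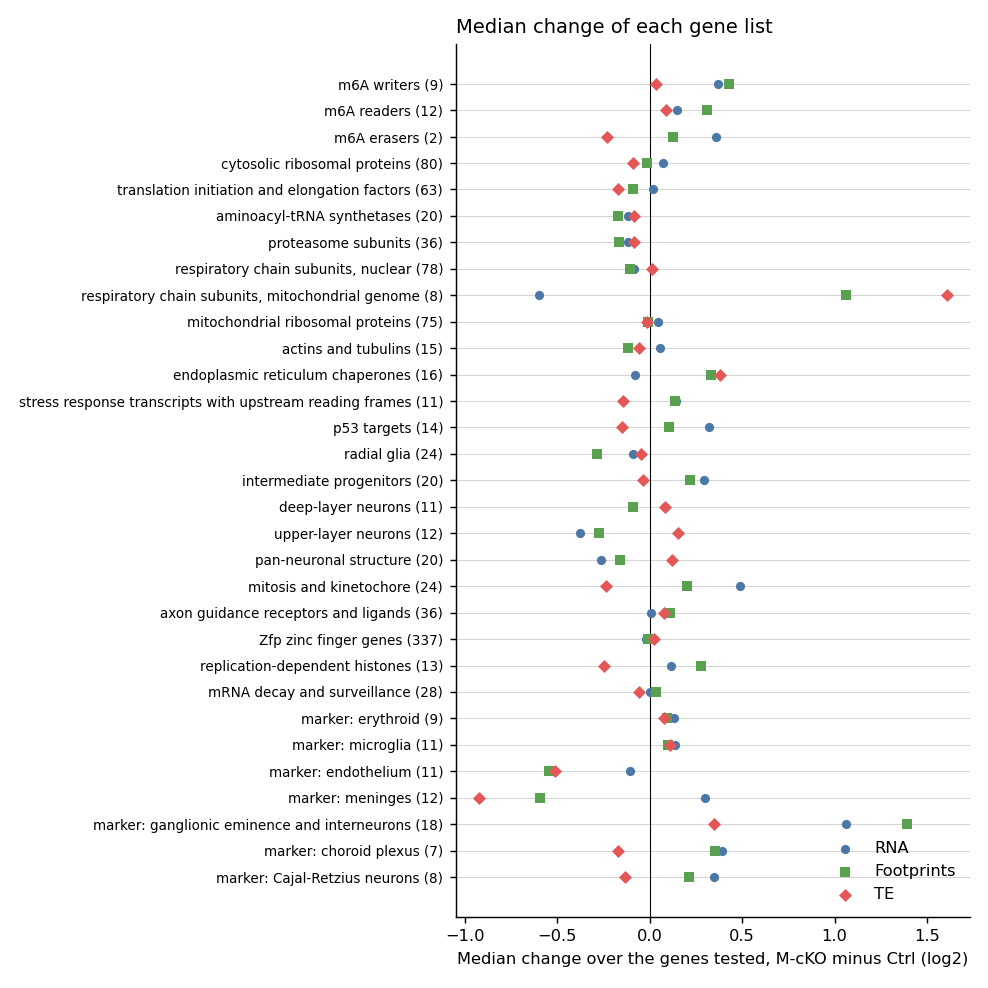
For each gene list the median RNA, footprint and TE change of M-cKO against Ctrl is shown on a log2 axis, with the number of tested genes in brackets. TE medians are farthest from 0 for genes of the mitochondrial genome (1.61) and for the marker lists of endothelium (-0.51) and meninges (-0.92). Footprint medians of these lists depend on single libraries. The mitochondrial median goes from 1.06 to 0.22 without Ribo M-cKO 2. For meninges it goes from -0.59 to -0.09 without Ribo M-cKO 1, and for endothelium from -0.54 to -0.29 without Ribo Ctrl 3.

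Markers of other cell types that the tissue could hold were followed in the same way, and with all 12 libraries none of them was called in TE. Without Ribo Ctrl 1, 2 markers of ganglionic eminence and interneurons were called higher in TE. Ganglionic eminence and interneuron markers had 16 of 18 genes higher in RNA (median 1.06) and 15 higher in footprints (median 1.39), with 15 passed on. The footprint count was 4 without Ribo Ctrl 2 and 7 without Ribo Ctrl 3, and between 10 and 16 without each other Ribo-seq library. Summed over the list, RNA was between 698 and 703 CPM in Ctrl and between 949.5 and 1255 CPM in *M*-cKO, and footprints were between 327 and 471 CPM and between 559 and 1078 CPM. Isl1, a gene of the ventral telencephalon, rose by 2.79 in RNA and 3.32 in footprints. The part of this list in the RNA changes of other genes was not tested. Of 12 meninges markers none was called in any measure, with a list median of -0.92 for TE, and of 11 endothelium markers 1 was called lower in RNA and 1 in footprints, with a median of -0.51. The median footprint change of the meninges markers was -0.59 with all libraries and -0.09 without Ribo *M*-cKO 1. Without RNA *M*-cKO 1, 5 of them were called higher in RNA, and without Ribo *M*-cKO 3, 2 were called lower in footprints. Medians for TE were 0.08 over 9 erythroid, 0.11 over 11 microglia, -0.17 over 7 choroid plexus and -0.13 over 8 Cajal-Retzius markers. Choroid plexus sums differed widely between libraries. RNA was 95.8, 1062 and 418 CPM in Ctrl and 571, 675 and 777 CPM in *M*-cKO, and footprints were 494, 2111 and 644 CPM in Ctrl and 1400, 690 and 2051 CPM in *M*-cKO.

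Genes that do not encode proteins were tested with the rest, although their ratio cannot be read as translation. Of the 218 higher genes 187 were protein-coding, 11 lncRNA, 5 snoRNA, 1 snRNA, 7 pseudogenes, 1 another non-coding gene and 6 without a biotype, and of the 186 lower genes 176 were protein-coding, 5 lncRNA, 1 a pseudogene and 4 without a biotype. The smallest TE p of all genes was that of the lncRNA Gm15728, with RNA of 3.70, 3.48 and 4.20 in Ctrl and 3.05, 3.22 and 3.23 in *M*-cKO and footprints of 9.91, 5.03 and 8.89 in Ctrl and 174, 241 and 191 in *M*-cKO. The groups overlapped in neither assay, and the TE change was 4.92 ± 0.32 (SE, adjusted p = 4.90e-06). Dancr, a lncRNA with Snora26 inside its span, followed with footprints of 19.4, 23.1 and 16.7 in Ctrl and 92.9, 80.8 and 59.3 in *M*-cKO and a change of 2.19 ± 0.23 (SE, adjusted p = 4.47e-04), and the snoRNA gene Gm26387 with 3.40 ± 0.52 (SE, adjusted p = 0.00995). All 17 tested snoRNA genes had a TE change above 0. On the lower side were Dubr (-0.97 ± 0.18, SE, adjusted p = 0.0165), 4930539J05Rik (-2.84 ± 0.55, SE, adjusted p = 0.0192), which overlaps Ube2d3, and Peg13 (-0.87 ± 0.18, SE, adjusted p = 0.0261), which overlaps Trappc9. The snoRNA share of footprints was between 1.09% and 1.43% in Ctrl and between 2.10% and 3.46% in *M*-cKO libraries, and its part in these values was not tested. Annotated small RNA genes lay inside 9.63% of the genes with higher TE, 8.6% of those with lower TE and 9.01% of all genes tested. Among lncRNA genes they lay inside 5 of the 11 with higher TE and 1 of the 5 with lower TE, against 56 of the 351 tested, a difference that was not tested. With protein-coding genes alone, and libraries scaled over them, 194 genes were higher and 168 lower.

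Whether TE in *M*-cKO differed from that in *F*-cKO was tested directly over their own 12 libraries. None of 13162 genes passed in edgeR's quasi-likelihood test (0%), 234 were higher and 265 lower at an unadjusted p below 0.05, DESeq2 called 15 higher and 3 lower and limma-voom 3 higher. RNA was called for 33.9% of genes in the same comparison and footprints for none, with 614 genes higher and 429 lower at an unadjusted footprint p below 0.05. Ribo *F*-cKO 2 stands apart from the other Ribo-seq libraries, with 529.6 CPM summed over endothelium markers against 31.7 to 67.6 CPM in the other 8. Without it, 1404 of 13162 genes had an unadjusted TE p below 0.05 in the quasi-likelihood test. Of these, 5 genes were called, all higher in *M*-cKO: Gm15728 (4.33), C2cd2l (3.60), Mfge8 (2.22), Gm37608 (7.68) and Dancr (1.95). Footprints of C2cd2l were 9.24, 18.4 and 10.1 CPM in *F*-cKO 1 to 3, below every *M*-cKO library, and those of Mfge8 were 16.1, 135 and 24.5 CPM, of which *F*-cKO 2 lay above every *M*-cKO library. Fto, the gene deleted in *F*-cKO, had RNA of 43.1, 101 and 32.8 CPM and footprints of 44.2, 27.6 and 46.7 CPM there, below every Ctrl and *M*-cKO library in both assays. Mettl3 differed in TE by -0.99 with all libraries and by -0.94 without Ribo *F*-cKO 2 (adjusted p = 0.057), its *F*-cKO footprint to RNA ratios being 1.31, 1.42 and 1.43. That TE calls were made against Ctrl and not here does not show that both knockouts share them.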

How the data were processed

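Counts were read from the RNA-seq and Ribo-seq count tables that the authors deposited, in which values are whole reads per gene without normalization. By the methods of the study, RNA-seq reads were aligned with HISAT2, and Ribo-seq reads were mapped with TopHat2 and counted with HTSeq after adapter removal, which is given per the labels. The submitters' processing notes name mm10, HISAT2 2.0.5 and DESeq2 1.14.1. The tool and strand setting of the RNA-seq counts are not given in the sources used here. RPKM (Ribo-seq) and FPKM (RNA-seq) values, which the authors deposited as reads or fragments scaled to gene length and library size, served only for TE levels, cortical markers and genes with blank counts. Of 54838 genes in the Ribo-seq table, 40490 are blank in 8 columns and were left out.

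Counts were tested with edgeR 4.0.16 in R 4.3.3 by its quasi-likelihood test, with TMM scaling within each assay and filterByExpr per assay (minimum count 10, minimum total 15), with Benjamini-Hochberg adjustment over every gene tested and a threshold of 0.05. The TE change was fitted as the assay-by-genotype term over 12 libraries, and RNA and footprint changes were fitted within their assay. All values with ± are standard errors on the log2 scale. With 3 against 3 libraries an exact two-sided permutation test cannot go below p = 0.1, so none is given for single values. On simulated data for the TE comparison (13208 genes), 69 of 100 genes changed by 2-fold and 95 of 100 changed by 4-fold were called, and 7 unchanged genes were called. The changed genes were drawn only from those with higher mean counts. Counts were simulated independently, without RNA changes, pairing of the assays or a library that stands apart. The real libraries differ in these respects, so the simulated rates need not hold for them.

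Ribo-seq and RNA-seq libraries of the same genotype and number deviated together from their group means (correlations of 0.175, 0.275 and 0.114 in Ctrl and 0.336, 0.11 and 0.2 in *M*-cKO), so by these correlations, not by any label, the numbers pair the assays. The main TE fit, from which the counts and p values come unless stated, leaves this pairing out. It enters the replicate block of pairs. Ribo-seq libraries of Ctrl and *M*-cKO with the same number did not pair (0.0203 to 0.0763).

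The genes described, their classes and the gene lists were chosen with earlier results of these data known. Genes were named by rule: Mettl3, Fto and the m6A genes, the 10 protein-coding genes with the smallest TE p in each direction, 5 per class and RNA direction with the smallest RNA adjusted p, 3 non-coding genes per direction, list members called in TE, and 8 genes the study names from both assays. Other genes named, such as Sox2, Mef2c, Calr, Hspa5, Atf4, Actb and those listed without a TE call, were picked once their values had been seen. The alternatives were DESeq2 1.42.0, limma-voom (limma 3.58.1), other scalings, no filter, protein-coding genes only, all 18 libraries, replicate blocks and fits without single libraries or pairs.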

Additional observations from a re-analysis of the deposited data

Results flagged for a closer look

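Among the 40490 genes that are blank in the Ribo-seq count table and entered no comparison, 234 had an RPKM above 0 in all 3 *M*-cKO Ribo-seq libraries and 0 in all 3 Ctrl libraries. The reverse pattern was found for 167 genes. These values lie outside the genes tested, were singled out because a signal was present in *M*-cKO and not in the controls, and carry no test.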

How the results depend on the processing

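All 404 called TE genes kept their sign in the 27 other fits, which is no sign of stability because the pair ratios of the groups overlap in none of them, and 3 of them were called in all 27. For TE, 218 higher and 186 lower genes became 567 and 532 with DESeq2, 6 and 2 with all 18 libraries, and 133 and 170 without a filter on low counts. More genes were lower than higher without that filter, with limma-voom (179 and 181) and without Ribo *M*-cKO 1 (305 and 306). Other scalings, limma-voom and protein-coding genes alone gave between 179 and 249 higher and between 156 and 183 lower genes. With the replicate block of paired libraries 282 genes were higher and 212 lower, 329 of the 404 calls being shared, and with the block by number 205 and 168. Beyond the calls given beside their genes, the block of pairs changed no call of a named gene. Fits without single libraries or pairs gave from 6 to 626 higher and from 2 to 485 lower genes.

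Footprint calls (1232 and 1149) were 1 and 0 with all 18 libraries and 2291 and 2123 in the single fit of 12 libraries, in which RNA calls were 1485 and 1234. Without single libraries or pairs they ranged from 265 to 1513 higher and from 245 to 1286 lower. Buffered, passed-on and amplified genes (184, 1356 and 31) were 423, 1577 and 80 with DESeq2, 4, 0 and 0 with all 18 libraries, and 487, 2038 and 107 at an adjusted p below 0.1. Amplified genes were 16 in the single fit of 12 libraries. Without single libraries or pairs the classes ranged from 3 to 400, from 378 to 1428 and from 0 to 97. Between *M*-cKO and *F*-cKO, DESeq2 called 15 genes higher and 3 lower, limma-voom 3 higher, and fits without 1 library from 0 to 5 higher and 0 lower. The median TE level was 0.924 in Ctrl and 0.902 in *M*-cKO with a pseudocount of 1, and 1.001 and 0.952 for genes with mean FPKM and RPKM of at least 1.

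For the named genes, 2335 of the alternative values stayed on the same side of the threshold, 750 lost and 12 gained the call. Of the list medians 815 stayed and 21 moved. The cause of these changes was not tested. The shallowest *M*-cKO library held 13764136 footprint counts, and without it (Ribo *M*-cKO 2) 195 genes had higher and 138 lower TE.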
